A study of Mus musculus with 8 samples.

Results

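The genes examined were 8 members of the fibroblast growth factor (FGF) system of the limb bud, out of 22208 protein-coding genes on chromosomes 1 to 19 and X. They comprised the ligand genes Fgf4, Fgf8, Fgf9, Fgf10 and Fgf17 and the receptor genes Fgfr1, Fgfr2 and Fgfr3. They were chosen by name, and all SMAD4 ChIP-seq peaks with their centre within 100 kb of the gene 5′ end were assigned to them (mouse build mm9, GENCODE vM1 annotation). SMAD4 is the partner shared by the BMP and TGFβ branches of SMAD signalling. It was precipitated with the M2 anti-FLAG antibody from mouse embryos (NMRI strain, genotype Smad4Flag) whose own Smad4 gene encodes a 3xFLAG epitope, and the allele is also carried by the input samples. The series holds 8 samples in 4 groups, with 2 ChIP and 2 input samples for each stage. Forelimb buds with attached trunk tissue were collected at E9.5, dated E9.75 in the protocol, from about 80 embryos per replicate. Forelimb and hindlimb buds were collected at E10.5 from about 100 embryos per replicate, while the source label names the forelimb for all samples. Tissue therefore changed together with stage, and whole buds combine ectoderm and mesenchyme.

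The values were 2 peak lists, with 2073 peaks at E9.5 and 6185 peaks at E10.5. Each list gives a position and a score per peak, in which the replicates had already been combined by the authors. Single-replicate values, a replicate SD and the sequencing depth are therefore unknown, no test between the stages was possible, and the absence of a peak does not show the absence of SMAD4. The unit of the score is not named in the lists, so peaks are given by their rank within their own list (rank 1 is the highest score). Because the E10.5 list is longer, each count of members is given beside the share of all genes in the same list.

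FGFs are secreted ligands that signal through receptor tyrosine kinases. In the limb bud, FGF10 from the mesenchyme induces the apical ectodermal ridge, whose own ligands FGF8, FGF4, FGF9 and FGF17 keep the mesenchyme proliferating and maintain Shh expression. SHH and the BMP antagonist GREM1 in turn sustain the ridge FGFs, so that BMP activity and FGF signalling are linked through a feedback loop. FGFR1 is the main receptor in the mesenchyme, splice forms of FGFR2 serve both ectoderm and mesenchyme, and FGFR3 is best known from cartilage.

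At E10.5, 6 of the 8 members had a peak within 100 kb, namely Fgf4, Fgf8, Fgf17, Fgfr1, Fgfr2 and Fgfr3, whereas Fgf9 and Fgf10 had none. Over all protein-coding genes, 53.0% had such a peak at E10.5. At E9.5, 2 of the 8 members had one, Fgfr2 and Fgfr3, beside 20.5% of all genes. The number of peaks was 17 at E10.5 and 3 at E9.5. A pair of overlapping peaks from both stages lay near Fgfr2 and Fgfr3, beside 5.52% of all genes. The Fgfr2 part of these counts rests on an annotation feature. The gene record of Fgfr2 (chr7:137305965-140315033, minus strand, 29 transcripts) includes 1 transcript tagged as readthrough, which begins at the promoter of Ctbp2, 2905 kb upstream of all other Fgfr2 transcripts. Without this transcript the gene spans 104 kb, and its 5′ end lies at position 137410322 in place of 140315033. Counted from 5′ ends without readthrough transcripts, a choice made after the data were seen, 6 of 8 members had a peak at E10.5 (17 peaks) and only Fgfr3 had one at E9.5 (1 peak, which was also the only overlapping pair). The shares over all genes were 53.0% at E10.5 and 20.5% at E9.5 under this count. Unless stated otherwise, the values below use these 5′ ends, and distances are in the direction of transcription, with negative values upstream. For Fgfr1, which has 2 gene records, distances are from the outer 5′ end.

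**Figure D1:**
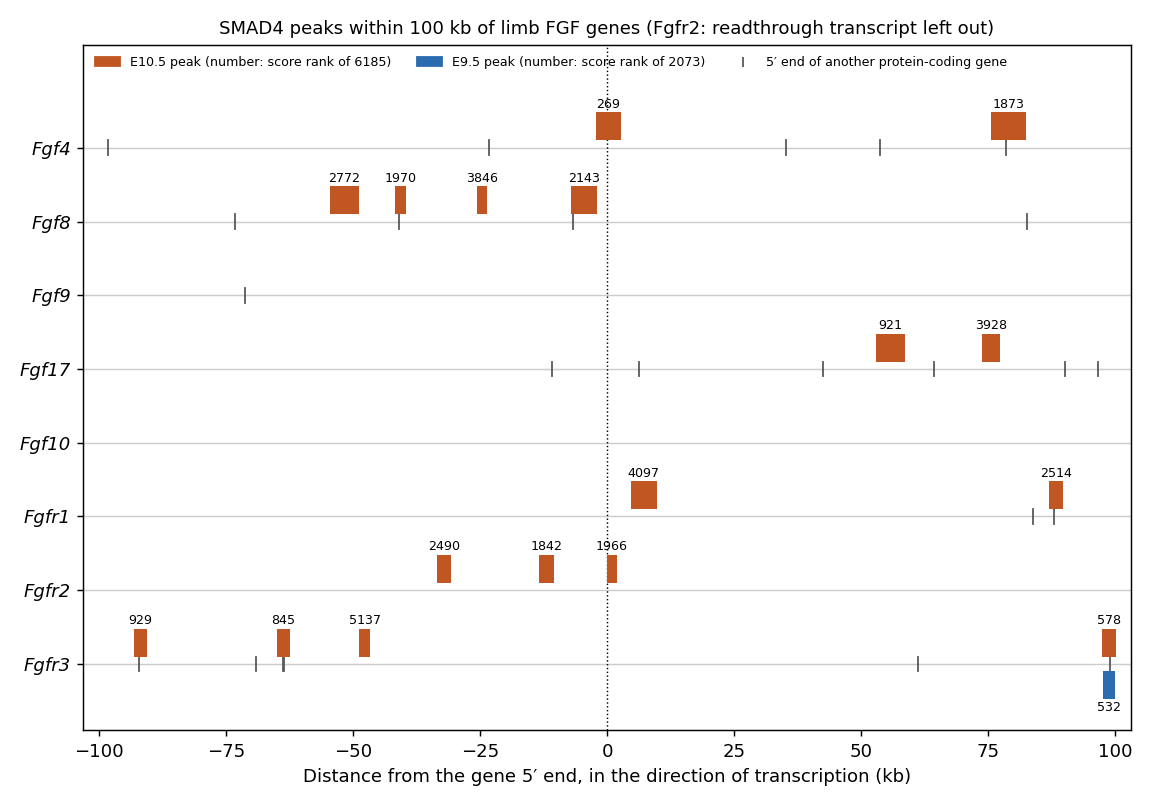
SMAD4 peaks within 100 kb of the 8 FGF members, drawn to scale by distance from the gene 5′ end (kb, horizontal axis), with E10.5 peaks above and E9.5 peaks below each line, score ranks as numbers, and 5′ ends of other protein-coding genes as grey ticks. The peaks of Fgf4 (rank 269) and Fgfr2 (rank 1966) lie over the gene start, the 4 peaks of Fgf8 all lie upstream, and Fgf9 and Fgf10 have none.

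Short sequences that hold letters bound by SMAD complexes are given for the Fgf4 promoter, for peaks near Fgf8, Fgf17, Fgfr1 and Fgfr2 and for the region near Fgfr3 in both lists. CAGAC is the core of the SMAD binding element, and GGCGCC is a GC-rich element bound by BMP-regulated SMADs. The regions searched differed: the promoter for Fgf4, the whole E9.5 peak for the region near Fgfr3, and the central 300 bp for the other peaks. In the Fgf4 promoter peak and the region near Fgfr3, the central 300 bp held neither sequence. Over whole peaks, 94.0% of the E9.5 list held CAGAC and 26.1% held GGCGCC. Each line gives the match in capitals with 10 flanking bases on each side, read from mm9 on the strand of the member gene, so that GTCTG is CAGAC on the opposite strand.
Fgf4, promoter, chr7:152047242-152047267, plus strand: agtaggagggGGCGCCggctatatat
Fgf8, peak at -4.55 kb, chr19:45821958-45821982, minus strand: caaacaagggGTCTGggcctctgtc
Fgf17, peak at 55.8 kb, chr14:70986271-70986296, minus strand: aacctggggaGGCGCCtccacaccta
Fgfr1, peak in intron, chr8:26631330-26631354, plus strand: tggtcggtggGTCTGggccaaactt
Fgfr2, peak at -11.9 kb, chr7:137422132-137422156, minus strand: ccagcatcttGTCTGaatccttaat
Fgfr2, same peak, chr7:137422296-137422320, minus strand: accgctctgtGTCTGcctgcgtact
Fgfr2, peak at -32.1 kb, chr7:137442302-137442326, minus strand: gctgaggagcCAGACtcccaggcag
Fgfr3, peak at Whsc1 in both lists, chr5:34162808-34162832, plus strand: gccccgcccgCAGACgactccaagc
Fgfr3, same peak, chr5:34163645-34163670, plus strand: ctgagggccgGGCGCCggggacaggc
The peak nearest to the Fgfr2 start held 1 GGCGCC in its central window, in an untranslated region, and is not shown. The peak nearest to Fgfr3 held neither sequence in its central window. These matches are descriptions of the sequence and were not tested as binding sites.

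Among the ligands of the ridge, Fgf4, whose product sustains the SHH feedback loop in the posterior ridge, had the best-ranked peak. The peak chr7:152045024-152050055 ranked 269 of 6185 at E10.5 (score 117, top 4.35%), measured 5032 bp and had its centre 0.25 kb inside the gene, in coding sequence. It covered the start of Fgf4 (chr7:152047291-152051148, plus strand) and no other protein-coding start, and all 300 bp of the RefSeq promoter of Fgf4. This promoter held 1 GGCGCC, centred at -0.036 kb, and 1 TGACAG, the core of sites bound by TALE homeodomain proteins. A further E10.5 peak, chr7:152122810-152129684, lay 79.0 kb downstream at the start of Ccnd1, which encodes cyclin D1 (rank 1873, score 69.6). It was 6875 bp wide, the widest peak near any member. The Fgf4 locus also holds Fgf3 and Fgf15, so the Fgf4 promoter peak lay at 23.6 kb from the 5′ end of Fgf3 and at -34.9 kb from that of Fgf15, and counts for all 3 genes. The nearest E9.5 peak lay 281 kb upstream, in Fadd (rank 1407 of 2073).

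Fgf8, the ridge ligand expressed along the whole ridge (chr19:45811288-45817405, minus strand), had 4 peaks at E10.5, as many as Fgfr3 and more than the other members. All 4 lay upstream and none touched the gene itself. The closest, chr19:45819425-45824486, was 5062 bp wide with its centre at -4.55 kb (rank 2143, score 66.9), and it held 2 transcript starts of Npm3. The others followed at -24.5 kb in coding sequence of Mgea5 (chr19:45840939-45842970, rank 3846, score 55.8), at -40.6 kb over the start of Mgea5 (chr19:45856914-45859173, rank 1970, score 68.4) and at -51.7 kb over starts of Kcnip2 (chr19:45866278-45871985, rank 2772, score 61.9). The peak nearest to Fgf8 was thus not its best-ranked one. On the other side of Fgf8 lies Fbxw4 (chr19:45652744-45734802), whose introns are known to hold limb enhancers of Fgf8, and 0 peaks touched Fbxw4 at either stage. The nearest E9.5 peak was 811 kb away, in an intron of Arl3.

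Fgf17, a ridge ligand with partly redundant function (chr14:71036012-71042075, minus strand), had 2 peaks at E10.5, both downstream and in introns of other genes. The better-ranked, chr14:70983494-70989083, lay 55.8 kb downstream in Fam160b2 (rank 921, score 85.8), measured 5590 bp and was nearest to a start of Nudt18 (8.63 kb). The other, chr14:70964822-70968231, lay 75.5 kb downstream in Hr (rank 3928, score 55.4). Neither held a gene start, and 6 other genes start within 100 kb of Fgf17. Another E10.5 peak fell outside the limit, at -124 kb (rank 605, score 96.2), while the peaks nearest to the limit on the inside were those at 98.8 kb from Fgfr3. The nearest E9.5 peak was 613 kb away.

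Fgf9, the remaining ridge ligand (chr14:58689384-58731174, plus strand), had no peak within 100 kb in either list. Its nearest E10.5 peak lay 180 kb upstream at the start of Zdhhc20 (rank 2576, score 63.3), and its nearest E9.5 peak lay 499 kb upstream at the start of N6amt2 (rank 999, score 57.0).

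Fgf10, the mesenchymal ligand required for the limb bud to form (chr13:119458598-119580922, plus strand), stood farthest from any E10.5 peak. Within 500 kb there was no peak in either list, which holds for 3079 protein-coding genes (13.9%). The nearest peaks of both stages lay at the start of Paip1, 759 kb downstream, where they overlapped by 1844 bp. At Paip1 the E9.5 peak ranked 147 of 2073 and the E10.5 peak 2661 of 6185. Fgf10 has 0 other gene starts within 100 kb, and its RefSeq start, at position 119503506, lies inside the gene record, so neither start was near a peak.

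Of the receptor genes, Fgfr1 (chr8:26624126-26686186, plus strand) had a peak within the gene at E10.5. The peak chr8:26628820-26633923 was 5104 bp wide, lay in an intron 7.25 kb from the outer 5′ end and held 6 Fgfr1 transcript starts. Its rank was low, at 4097 (score 54.6, top 66.2%). The peak chr8:26711096-26713808, 88.3 kb downstream, ranked higher (2514, score 63.7) and lay over starts of Whsc1l1, a histone methyltransferase gene. The nearest E9.5 peak was 839 kb away.

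Fgfr2 had 3 peaks at E10.5 that lay closer to its start than to the 5′ end of any other protein-coding gene. The promoter peak chr7:137408333-137410354 held 6 Fgfr2 transcript starts (rank 1966, score 68.5, 2022 bp). It covered only 82 of the 300 bp of the RefSeq promoter, since it lay mainly downstream of that start, and its centre was 0.98 kb inside the gene. Upstream, between genes, lay chr7:137420735-137423684 at -11.9 kb (rank 1842, score 69.9) and chr7:137440977-137443814 at -32.1 kb (rank 2490, score 64.0). These ranks span 29.8% to 40.3% of the list, so the 3 peaks were close to each other in score. There are 0 other gene starts within 100 kb of this Fgfr2 start. The nearest E9.5 peak lay 255 kb beyond the start on the gene's downstream side and was among the lowest of its list (rank 1975 of 2073).

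The peaks that the gene record with the readthrough transcript assigned to Fgfr2 lay in and around Ctbp2, a transcriptional corepressor gene. At E10.5 they included chr7:140313093-140317443, which ranked 35 of 6185 (score 209, top 0.566%) and held 14 Ctbp2 transcript starts beside that of the readthrough transcript. A pair of peaks from both stages lay farther upstream, at -44.4 kb (E9.5) and -44.3 kb (E10.5) from the end of the gene record, and overlapped by 2872 bp, with rank 1969 of 2073 at E9.5 and 809 of 6185 at E10.5. A further E9.5 peak in an intron of Ctbp2 ranked 356 (score 78.4), and an E10.5 peak in another intron ranked 5784 (score 41.0). Each of these peaks was nearer to a transcript start of Ctbp2 than to one of Fgfr2 outside the readthrough transcript.

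Fgfr3 (chr5:34064373-34079716, plus strand) had 4 peaks at E10.5 and 1 at E9.5, all at or in other genes and none touching Fgfr3. The E9.5 peak chr5:34161906-34164397 ranked 532 of 2073 (score 68.0) and lay wholly within the E10.5 peak chr5:34161841-34164505, which ranked 578 of 6185 (score 97.6). They overlapped by 2492 bp over 5 starts of Whsc1, another histone methyltransferase gene, at 98.8 kb from Fgfr3, just inside the limit. The remaining E10.5 peaks lay upstream at -91.8 kb over the start of Fam53a (rank 929, score 85.4), at -63.7 kb over the starts of Tmem129 and Tacc3 (rank 845, score 87.7) and at -47.6 kb in an intron of Tacc3 (rank 5137, score 50.7). The last of these had the lowest rank of the 17 E10.5 peaks.

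**Figure D2:**
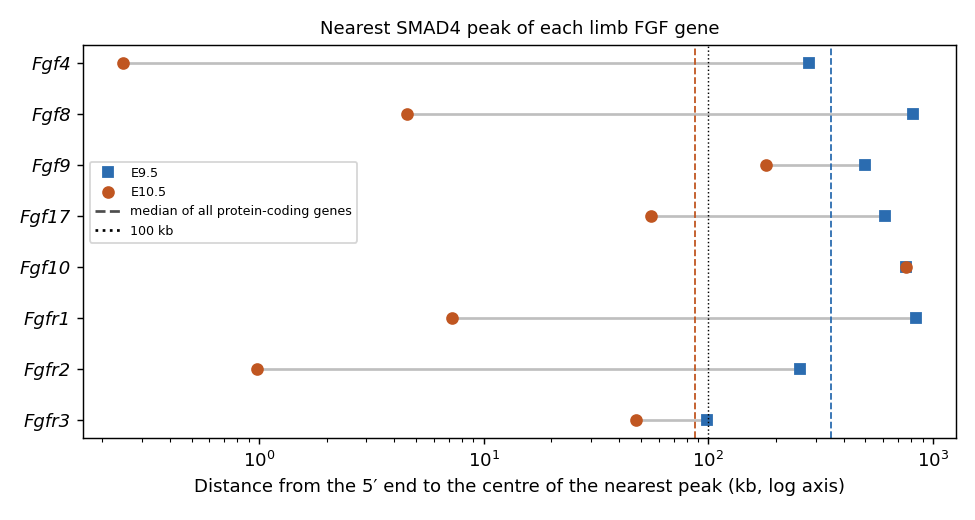
Distance from the 5′ end of each member to the centre of its nearest SMAD4 peak (kb, log axis) at E9.5 (squares) and E10.5 (circles), with dashed lines at the median over all protein-coding genes and a dotted line at 100 kb. Fgf4, Fgf8, Fgfr1 and Fgfr2 have an E10.5 peak within 10 kb and an E9.5 peak no closer than 255 kb, and for Fgf10 both lie at 759 kb.

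The distance to the nearest E10.5 peak ordered the members as Fgf4 (0.25 kb), Fgfr2 (0.98 kb), Fgf8 (4.55 kb), Fgfr1 (7.25 kb), Fgfr3 (47.6 kb), Fgf17 (55.8 kb), Fgf9 (180 kb) and Fgf10 (759 kb), beside a median of 87.6 kb over all genes. With the inner gene record of Fgfr1 (2.10 kb) counted, 4 of 8 members had an E10.5 peak within 5 kb of a 5′ end, beside 13.1% of all genes, and from the outer record of Fgfr1 it was 3 of 8. The Fgf8 peak in this count held starts of Npm3 and did not touch Fgf8. At E9.5 the order began with Fgfr3 (98.8 kb), Fgfr2 (255 kb) and Fgf4 (281 kb), and the median over all genes was 350.0 kb. Since the lists carry no replicate spread, neighbours in these orders were not tested.

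The median score of the 17 E10.5 peaks was 68.4, beside 59.8 over all 6185 peaks, and 13 of 17 ranked in the better-scored 50% of the list. Only the Fgf4 promoter peak had a score of 100 or more, a level reached by 8.44% of the list. With the Fgfr3 peak at Whsc1 it also formed the 2 peaks in the top 10%. A gene start lay inside 11 of the 17 peaks (list 44.7%), but only in 3 was it that of a member (Fgf4, Fgfr1 and Fgfr2). For 5 of the 17 peaks the nearest transcript start was a member's. The peaks were wider than 5 kb in 6 of 17 cases (list 17.1%), and the median width was 2838 bp (list 2552 bp). Those 6 were the Fgf4 promoter peak and the one at Ccnd1, the Fgf8 peaks at Npm3 and Kcnip2, the Fgf17 peak in Fam160b2 and the Fgfr1 intron peak. Overlap with the other list was found for 1 of the 17 peaks, beside 6.26% of E10.5 peaks. The 17 peaks were selected by their distance to a gene 5′ end, and the list was not. The part of this selection in the differences from the list was not tested.

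**Figure D3:**
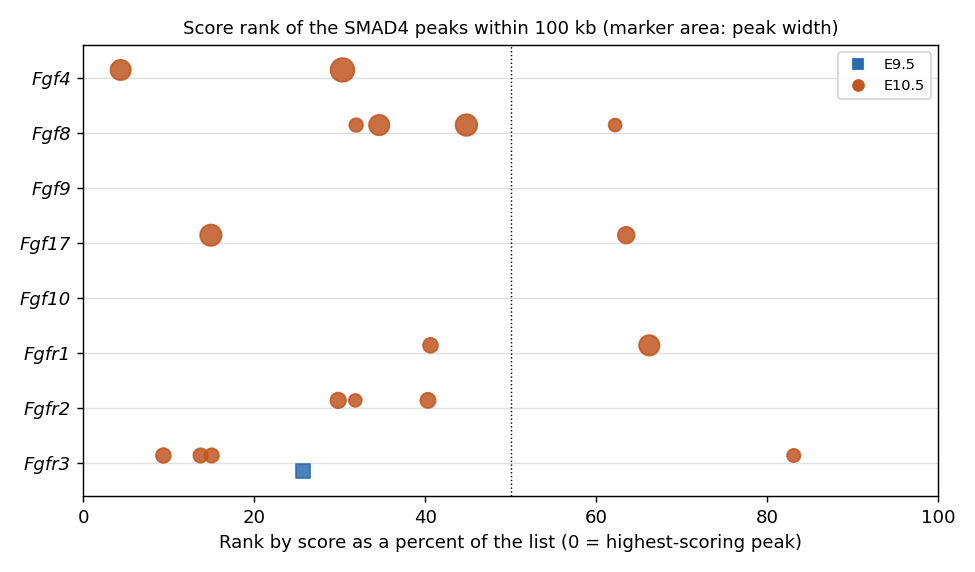
Score rank of each SMAD4 peak within 100 kb of a member as a percent of its own list (0 is the highest score), for E10.5 (circles) and E9.5 (square), with marker area proportional to peak width and a dotted line at 50%. The Fgf4 promoter peak lies highest at 4.35%, the 3 Fgfr2 peaks lie together, and the lowest is an Fgfr3 peak at 83.1%.

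The density of neighbouring genes differed between members, and over all genes it went along with the presence of a peak at E10.5. Of genes with 0 or 1 other gene starts within 100 kb, 38.4% had an E10.5 peak, and the share was 51.8% with 2 to 4, 60.5% with 5 to 8 and 70.2% with 9 or more. At E9.5 the shares of the same classes were 17.2%, 21.4%, 20.5% and 24.4%, with a smaller rise than at E10.5 and no steady order. Fgf9 (1 neighbour) and Fgf10 (0 neighbours) were in the lowest class, together with Fgfr2 (0 neighbours). Fgf8 (4) and Fgfr1 (2) were in the next class, and Fgf4 (5), Fgf17 (6) and Fgfr3 (6) in the one after it. In the lowest class, Fgfr2 had 3 peaks at E10.5 and Fgf9 and Fgf10 had none, beside a peak for 38.4% of all genes in it. The part of gene density in the members' peaks was not tested.

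The 300 bp around each peak centre were searched on both strands for 7 sequences. The SMAD core CAGAC was found in 9 of the 17 E10.5 windows near members, beside 53.2% of the list. Its longer form CAGACC, always also a match of the core, was found in 4 windows (list 19.7%). The GC-rich element GGCGCC was found in 3 windows (list 13.1%), and the TALE sequence TGACAG likewise in 3 windows (list 18.9%). The letters TCAAAG, which are the core of TCF/LEF sites, were found in 1 window (list 13.4%). The palindromic SMAD element GTCTAGAC, which does not contain the CAGAC core, was found in 0 windows (list 0.42%), and the sequence TGACTGAC also in 0 windows (list 1.41%). CAGAC was thus about as frequent near members as in the list, and with 17 windows the smaller counts are too few to compare. Within whole peaks, CAGAC occurred in all 17, as in 98.2% of the list. The Fgf4 promoter peak had no CAGAC in its central window and 12 in its 5032 bp, and the Fgfr1 intron peak had 1 and 14. The region at Whsc1 in both lists had none of the 7 sequences in its E9.5 central window, which was 78.0% GC, but held 5 CAGAC and 4 GGCGCC over its E9.5 length. Median GC content was 59.0% (list 55.0%). The ratio of observed to expected CpG was above 0.6, a level typical of CpG islands, in 7 of 17 windows (list 30.1%). These windows too were selected by distance to a gene 5′ end, unlike the list. RefSeq promoters (250 bases before to 50 after the start, table build GRCm38.p6, each found by an exact match in mm9) were matched for 5 of the 8 members. Besides Fgf4, the 2 promoters of Fgfr3 held 1 and 2 GGCGCC and that of Fgf9 held 1 CAGAC, with no peak over any of them, while those of Fgf10 and Fgfr2 held none of the 7 sequences. Among 32851 promoters of this length, 11.9% held GGCGCC and 49.6% held CAGAC.

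Other genes of the FGF system were counted in the same way. Of 21 further ligand, receptor and co-receptor genes, 11 (52.4%) had a peak at E10.5, 4 at E9.5 and 0 an overlapping pair. In this list 3 (14.3%) had an E10.5 peak within 5 kb (Fgf13, Fgf21 and Fgfrl1), beside 13.1% of all genes. The best-ranked E10.5 peaks lay at starts of neighbouring genes, near Fgf22 at Fstl3, which encodes an inhibitor of activin (rank 64, 24.9 kb), and near Fgfr4 at Nsd1 (rank 89, 58.5 kb). Fgf18, a ligand of skeletal development, had an E9.5 peak over its own start (-0.33 kb, rank 241 of 2073, score 92.9) that was not in the E10.5 list. Neither any ridge ligand nor Fgf10 had an E9.5 peak in reach of its start.

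Of 10 genes that respond to FGF signalling, which encode feedback inhibitors or effectors of the pathway, 8 had a peak at E10.5 and 4 at E9.5, with overlapping pairs near Dusp6 and Spred1. The shares over all genes were 53.0% at E10.5, 20.5% at E9.5 and, for a pair counted from gene records, 5.52%. With 10 genes, the difference from these shares was not tested. In 5 of the 10 (Spry2, Spry4, Dusp6, Etv5 and Spred1), an E10.5 peak lay within 5 kb of the 5′ end, beside 13.1% of all genes. The best of these were at Etv5, an ETS transcription factor gene (-0.17 kb, rank 697), and at Dusp6, an ERK phosphatase gene (-0.31 kb, rank 936). Of 8 genes of the SHH, GREM1 and BMP loop, 4 had a peak at E10.5 (Shh, Ptch1, Grem1 and Bmp4), beside 53.0% of all genes. At E9.5, 3 of the 8 had one (Ptch1, Grem1 and Bmp4), beside 20.5% of all genes. An E10.5 peak within 5 kb of the 5′ end was found for 0 of the 8. Ptch1, which encodes the SHH receptor, had 2 E10.5 peaks. The better-ranked (rank 788) held 2 Ptch1 transcript starts, although its centre lay 8.30 kb from the outer 5′ end. Likewise, Fgfr1 is in the 5 kb count of the members only through its inner gene record. Grem1 alone had an overlapping pair, at rank 3 of 2073 at E9.5 and rank 25 of 6185 at E10.5. The best-ranked peak over the start of an FGF member was that of Fgf4, at rank 269 of 6185.

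**Figure D4:**
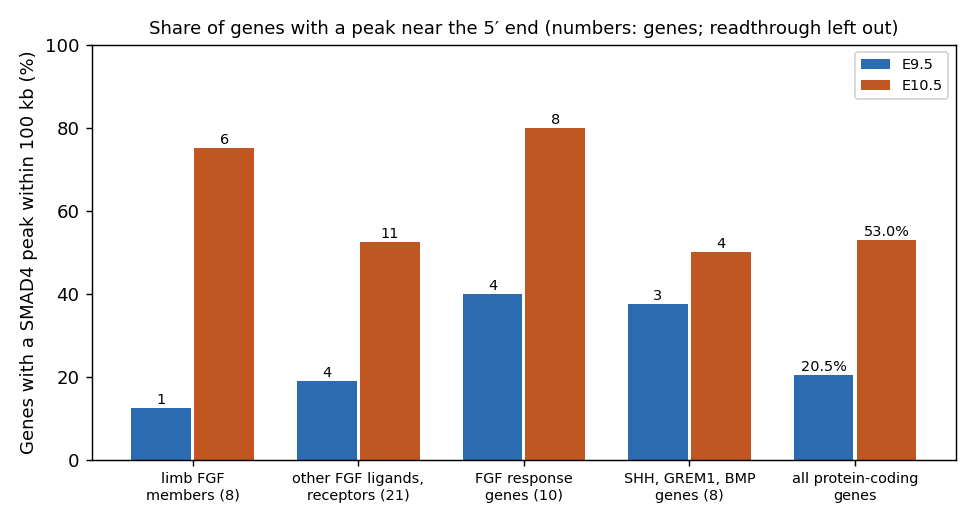
Share of genes with a SMAD4 peak within 100 kb of the 5′ end without readthrough (%, vertical axis) at E9.5 and E10.5 for the 8 FGF members, 3 comparison lists and all protein-coding genes, with the number of genes above each bar and the percentage above the bars of all genes. At E10.5 a peak is seen for 6 of 8 members and 8 of 10 FGF response genes, beside 53.0% of all genes. At E9.5 it is seen for 1 of 8 members, or 2 of 8 from the gene records, and these counts lie on either side of the 20.5% of all genes.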

How the data were processed

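SMAD4 ChIP and input samples were sequenced by the authors, aligned to mm9 with Bowtie 1.1.0 (unique matches) and peaks called with MACS 1.4 (versions from the submitters' processing notes). Replicates were merged with MSPC, so that regions seen in 1 replicate were dropped. The deposited lists give a score per peak, with no unit named, which was used to rank peaks and select those of 100 or more. The input samples served as controls of the peak calling.

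The lists were analysed with Python 3.11.15, NumPy 2.4.6, pandas 2.3.3 and Matplotlib 3.10.9, on a mm9 genome (0 peaks ran past the ends of 20 chromosomes) and GENCODE vM1. Coordinates are 1-based, and peaks overlapped from 1 bp. A gene's 5′ end was the outer end of its record, or of its transcripts not tagged readthrough. The assignment was checked on simulated peaks. No statistical test was run, because the replicates are merged. Members and gene lists were chosen with earlier results of these data known, so list counts are descriptions beside the share of all genes.

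Named are every member, every peak within 100 kb of one and its nearest gene, and up to 6 genes per comparison list by rank of their best peak. Fgf13, Fgfrl1, Spry2 and Spry4 were named after their values were seen. Alternatives changed the distance (50 or 250 kb, or the peak edge), the start used, the score limit, the assignment to the nearest gene, the overlap and the window searched.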

Additional observations from a re-analysis of the deposited data

How the results depend on the processing

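Of 46 alternative values, 26 were within 1.5 times the value reported and 20 moved further. The values reported from gene records were 2 members with 3 peaks at E9.5, 6 members with 17 peaks at E10.5, 2 overlapping pairs and CAGAC in 7 windows. With readthrough transcripts left out (chosen after seeing the data), E9.5 gave 1 member, 1 peak and 1 pair. A limit of 50 kb gave 1 member and 1 peak at E9.5, 9 peaks at E10.5 and 1 pair. The E9.5 member, peak and pair at 50 kb were those near Ctbp2 that fall to Fgfr2 through the readthrough transcript. From 5′ ends without readthrough, the nearest E9.5 peak of any member lay at 98.8 kb, so that 0 members and 0 pairs remained at 50 kb. Scores of 100 or more left 0 members and 0 peaks at E9.5, 2 members with 2 peaks at E10.5 (Fgf4 and the Ctbp2 start) and 0 pairs. The better-scored 50% of the lists gave 1 pair. Peaks nearest to a member's own gene 5′ end numbered 1 at E9.5 (1 member, Fgfr2) and 4 at E10.5 (Fgf4, Fgfr1 and Fgfr2, 3 members), with 0 pairs. At both stages, the Fgfr2 peaks in this count fall to Fgfr2 through the readthrough transcript. CAGAC was found in 11 windows of 500 bp and in 17 whole peaks. All 3 other definitions of overlap gave 2 pairs. No paired analysis was possible because the replicates were combined in the lists before any value used here, and no replicate could be left out. The depth of the libraries is unknown, so a missing peak sets no upper limit on binding, and more peaks at E10.5 cannot be told apart from deeper sequencing or from the change of tissue.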
